A study of Mus musculus with 30 samples.

Results

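The 7 genes that were chosen because their counts were much lower in Jak1-deficient tumours than in the other tumours of the series are followed here through every library. They are Strc, Cdh10, Tex13b, Glrb, Aif1l, Vstm5 and Apol6, 7 of the 55471 genes in the deposited count table, and all 7 were among the 15505 genes that passed a filter on low counts. The fall in Jak1KO tumours is what chose these genes, so it is given below as a description, with no test. Tests are kept for antibody treatment within each genotype, for the genes beside the 7 on their chromosomes, and for B2mKO against WT tumours. The choice did not use position or a contrast between antibodies. It did use the levels in B2mKO and WT tumours, so a gene high in only part of these could be chosen through that part.

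The samples were tumours that grew under the skin of female C57BL/6 mice after injection of MC38 cells, a colon carcinoma line of the same strain. The cells injected were Jak1KO (loss of function in Jak1), B2mKO (loss of function in B2m) or unmodified WT cells. Mice of each genotype arm received 100 µg of anti-PD-1 (aPD1) or of the isotype antibody IgG1 on days 7, 10 and 13, and tumour tissue was collected on day 14. The 6 groups, Jak1KO aPD1, Jak1KO IgG1, B2mKO aPD1, B2mKO IgG1, WT aPD1 and WT IgG1, had 5 libraries each. The labels do not give a mouse for each library, so p-values measure only the spread between libraries, which may be technical. Nor do they say whether a knockout line is 1 clone, so the deleted gene and any other trait of its line cannot be told apart. Total counts were between 17629795 and 25944701 per library. Jak1, the targeted gene, averaged 72.4 ± 6.99 CPM with aPD1 and 71.5 ± 4.98 CPM with IgG1 in Jak1KO tumours, against 182 to 323 CPM in the 20 other libraries (SD, n = 5 each). CPM, as edgeR computes it, is a gene's count relative to the scaled total of its library. Of the markers of simple epithelium, Cdx2 had no read in any of the 30 libraries, and the group means of Epcam, Krt8, Krt18, Krt19 and Krt20 were all between 0.0185 and 1.65 CPM. Vil1 had group means of 0.0899 to 0.225 CPM, and Cdh1, the most abundant, had 2.85 to 11.9 CPM with no library at 0, so most markers of the labelled colon origin were near 0. B2mKO aPD1 replicate 2 and WT IgG1 replicate 3 correlated least with their own groups, and results that change without them are named where they stand.

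The JAK1 kinase sits on the cytoplasmic tails of the interferon receptors and of several interleukin receptors, and it starts the phosphorylation cascade that switches on interferon-response genes. Tumour cells that lack it no longer answer interferon gamma from infiltrating T cells, and its loss is a known route to resistance against PD-1 blockade. Most of the 7 genes have no textbook place in that pathway. Strc encodes stereocilin, a protein that links the tips of stereocilia on outer hair cells of the inner ear. Cdh10 encodes a type II cadherin, a calcium-dependent adhesion molecule best known from the nervous system, and Glrb encodes the beta subunit of the inhibitory glycine receptor, which ties the receptor to the scaffold protein gephyrin at synapses. Aif1l encodes an actin-binding relative of the macrophage protein Iba1 (Aif1), Tex13b is an X-linked gene named for its expression in testis, and Vstm5 encodes a membrane protein with an immunoglobulin-like V-set domain. Apol6 belongs to the apolipoprotein L family, whose human members are induced by interferons.

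The 7 genes lie on 5 chromosomes (GRCm38 coordinates as in the deposited annotation). Strc (ENSMUSG00000033498) is at 121363728 to 121387168 and Aif1l (ENSMUSG00000001864) at 31950139 to 31973442 of chromosome 2, 89.4 Mb apart. Cdh10 (ENSMUSG00000022321) is at 18818947 to 19014236 and Apol6 (ENSMUSG00000033576) at 77044729 to 77057106 of chromosome 15, 58.2 Mb apart. Glrb (ENSMUSG00000028020) is at 80843599 to 80913660 of chromosome 3, Vstm5 (ENSMUSG00000031937) at 15239045 to 15259416 of chromosome 9 and Tex13b (ENSMUSG00000042386) at 140808307 to 140813433 of the X chromosome.

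Their promoters were of unlike kinds. RefSeq promoter windows of 300 bases (250 before to 50 after the start, GRCm38.p6) were found for 6 of the 7, all but Apol6. The windows of 4 genes are shown because they hold the extremes in CpG dinucleotides, the sites of vertebrate DNA methylation, which are in capitals. The first pair, Glrb at chr3:80913611-80913910 (minus strand) and Aif1l at chr2:31950053-31950352 (plus strand), is rich in CpG, and the second, Cdh10 at chr15:18820079-18820378 and Vstm5 at chr9:15238795-15239094 (both plus strand), is poor in it.
Glrb: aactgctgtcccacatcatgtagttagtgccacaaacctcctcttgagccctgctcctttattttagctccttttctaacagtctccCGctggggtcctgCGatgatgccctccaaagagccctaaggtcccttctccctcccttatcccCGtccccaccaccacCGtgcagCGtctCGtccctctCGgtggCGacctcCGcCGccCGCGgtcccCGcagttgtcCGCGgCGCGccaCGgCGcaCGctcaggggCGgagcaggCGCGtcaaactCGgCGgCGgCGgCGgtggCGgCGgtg
Aif1l: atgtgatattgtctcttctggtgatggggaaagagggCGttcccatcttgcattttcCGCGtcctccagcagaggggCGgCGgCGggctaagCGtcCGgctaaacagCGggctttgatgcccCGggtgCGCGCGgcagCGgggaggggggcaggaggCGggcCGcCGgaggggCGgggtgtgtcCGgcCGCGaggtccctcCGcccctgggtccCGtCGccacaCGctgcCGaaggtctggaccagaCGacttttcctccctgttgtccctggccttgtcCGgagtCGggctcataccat
Cdh10: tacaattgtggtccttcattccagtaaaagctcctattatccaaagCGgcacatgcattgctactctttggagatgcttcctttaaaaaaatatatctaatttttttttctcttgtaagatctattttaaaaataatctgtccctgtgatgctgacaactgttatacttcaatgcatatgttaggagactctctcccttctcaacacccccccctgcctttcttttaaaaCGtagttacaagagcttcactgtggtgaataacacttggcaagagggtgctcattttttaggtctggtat
Vstm5: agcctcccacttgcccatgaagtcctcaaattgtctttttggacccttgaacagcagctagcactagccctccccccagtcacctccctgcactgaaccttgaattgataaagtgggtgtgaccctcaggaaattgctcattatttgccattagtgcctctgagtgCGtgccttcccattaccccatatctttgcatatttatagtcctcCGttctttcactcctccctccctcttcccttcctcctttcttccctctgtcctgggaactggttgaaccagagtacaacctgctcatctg
The Glrb window held 30 CpG and the Aif1l window 29, with observed over expected ratios of 0.96 and 0.85. Both met the usual definition of a CpG-rich promoter (ratio above 0.6 and GC above 50%), which 33.3% of the 32851 windows in the RefSeq table met. The Cdh10 and Vstm5 windows held 2 CpG each (ratios 0.19 and 0.12), the Strc window 5 (0.25) and the Tex13b window 13 (0.73, with a GC content of 49.0%), against a median of 7 over all windows. The Cdh10 and Strc windows start inside the span of the deposited gene models, so other starts are annotated for these genes. The Aif1l window begins before its gene model, but its start lies inside the model, so an earlier start is annotated too.

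No short motif that was searched, on both strands, was common to all 6 windows. GGGCGG, a GC box, was in the windows of Tex13b, Glrb and Aif1l, against 35.7% of all windows. TATAAA was in the Vstm5 window alone of the 6, against 13.6% of all windows, and CANNTG (the E box) was in 5 of 6, against 72.3%. TTCNNNGAA, the gamma-activated site, and the interferon-stimulated response element were in none of the 6 windows, against 8.3% and 3.4% of all windows.

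Strc had the fewest reads of the 7 in Jak1KO tumours. One read was counted in Jak1KO aPD1 replicate 2 and 1 in Jak1KO IgG1 replicate 5, and the other 8 Jak1KO libraries held none, which allows up to 0.164 CPM in the shallowest of them (3 counts, counting error only). Levels were 4.16, 1.37, 2.68, 3.79 and 2.75 CPM in B2mKO aPD1 tumours and 4.01, 5.05, 3.33, 3.85 and 3.68 CPM in B2mKO IgG1 tumours. They were 13.8, 11.5, 12.6, 20.1 and 16.0 CPM in WT aPD1 tumours and 10.9, 15.3, 6.72, 19.5 and 8.66 CPM in WT IgG1 tumours. No Jak1KO library reached the lowest of the 20 others, and the B2mKO and WT ranges did not overlap. With 1 read in a whole Jak1KO group a fitted fold change depends on the prior count, so the ratio of pooled counts is given instead. WT tumours had 1636 times the Jak1KO level with aPD1 (95% exact interval 293 to 64657) and 1270 times with IgG1 (227 to 50196), and B2mKO tumours had 322 times with aPD1 (57.3 to 12757) and 420 times with IgG1 (75.1 to 16642). These intervals cover counting error only.

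Cdh10, the cadherin, was next by the weakest of its 4 fold changes against WT and B2mKO tumours with each antibody. Jak1KO libraries held 2, 3, 0, 1 and 1 reads with aPD1 and 1, 0, 0, 2 and 1 with IgG1, group means of 0.0652 ± 0.0556 and 0.0378 ± 0.0392 CPM. B2mKO tumours averaged 3.56 ± 1.45 CPM with aPD1 and 2.65 ± 0.902 CPM with IgG1, and WT tumours 3.56 ± 1.68 and 5.80 ± 1.44 CPM (SD, n = 5 each). The Jak1KO libraries, at 0.148 CPM or less, lay apart from the others, at 1.94 CPM or more, and the pooled Jak1KO level was 0.657% to 1.79% of theirs in the 4 comparisons.

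Glrb, the receptor subunit, was detected at a few reads per library. Counts were 3, 9, 3, 3 and 3 in Jak1KO aPD1 tumours and 3, 4, 0, 1 and 5 in Jak1KO IgG1 tumours, at most 0.445 CPM. B2mKO tumours had 9.89, 11.7, 6.64, 11.2 and 8.77 CPM with aPD1 and 11.6, 10.2, 7.41, 7.95 and 3.78 CPM with IgG1. WT tumours had 5.68, 4.38, 6.56, 6.36 and 6.22 CPM with aPD1 and 8.18, 4.76, 8.78, 5.78 and 5.67 CPM with IgG1. All 20 libraries outside the Jak1KO groups were above all 10 inside them, and B2mKO and WT libraries overlapped. The log2 fold change of Jak1KO tumours was -4.89 ± 0.37 against WT with aPD1, -5.68 ± 0.40 against WT with IgG1, -5.61 ± 0.36 against B2mKO with aPD1 and -5.98 ± 0.39 against B2mKO with IgG1 (fitted value ± SE).

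Tex13b had at most 12 reads in a Jak1KO library. Its means were 0.223 ± 0.183 CPM with aPD1 and 0.150 ± 0.134 CPM with IgG1 in Jak1KO tumours, against 6.09 ± 0.806 and 7.26 ± 3.52 CPM in B2mKO tumours and 7.49 ± 2.07 and 10.9 ± 4.65 CPM in WT tumours. The lowest of the 20 other libraries, at 3.5 CPM, was above the highest Jak1KO library, at 0.514 CPM. The order of the 7 genes in WT tumours, by mean level per kilobase of exon, depended on the antibody. With aPD1 it was Apol6 (3.11 CPM per kb), Tex13b (2.68), Aif1l (2.63), Strc (2.38), Glrb (1.25), Vstm5 (0.376) and Cdh10 (0.354). With IgG1 it was Tex13b (3.9 CPM per kb), Aif1l (2.7), Strc (1.96), Glrb (1.43), Apol6 (0.631), Cdh10 (0.577) and Vstm5 (0.421).

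Aif1l kept the most reads of the genes that separate the Jak1KO libraries fully. Its counts were 13, 5, 22, 6 and 1 in Jak1KO aPD1 tumours and 2, 0, 19, 0 and 9 in Jak1KO IgG1 tumours, a wider relative spread than in any other group. The highest Jak1KO library had 0.964 CPM and the lowest of the others 2.40 CPM, and the pooled Jak1KO level was 2.63% to 12.1% of the others in the 4 comparisons. Jak1KO IgG1 replicate 3 held 19 of the 30 reads of its group. Without it the log2 fold change with IgG1 was -6.32 ± 0.55 against WT, instead of -5.23 ± 0.48, and -4.69 ± 0.60 against B2mKO, instead of -3.60 ± 0.52. B2mKO tumours averaged 3.54 ± 0.948 CPM with aPD1 and 3.49 ± 1.24 CPM with IgG1, and WT tumours 10.6 ± 1.07 and 10.9 ± 4.99 CPM (SD, n = 5 each).

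**Figure D1:**
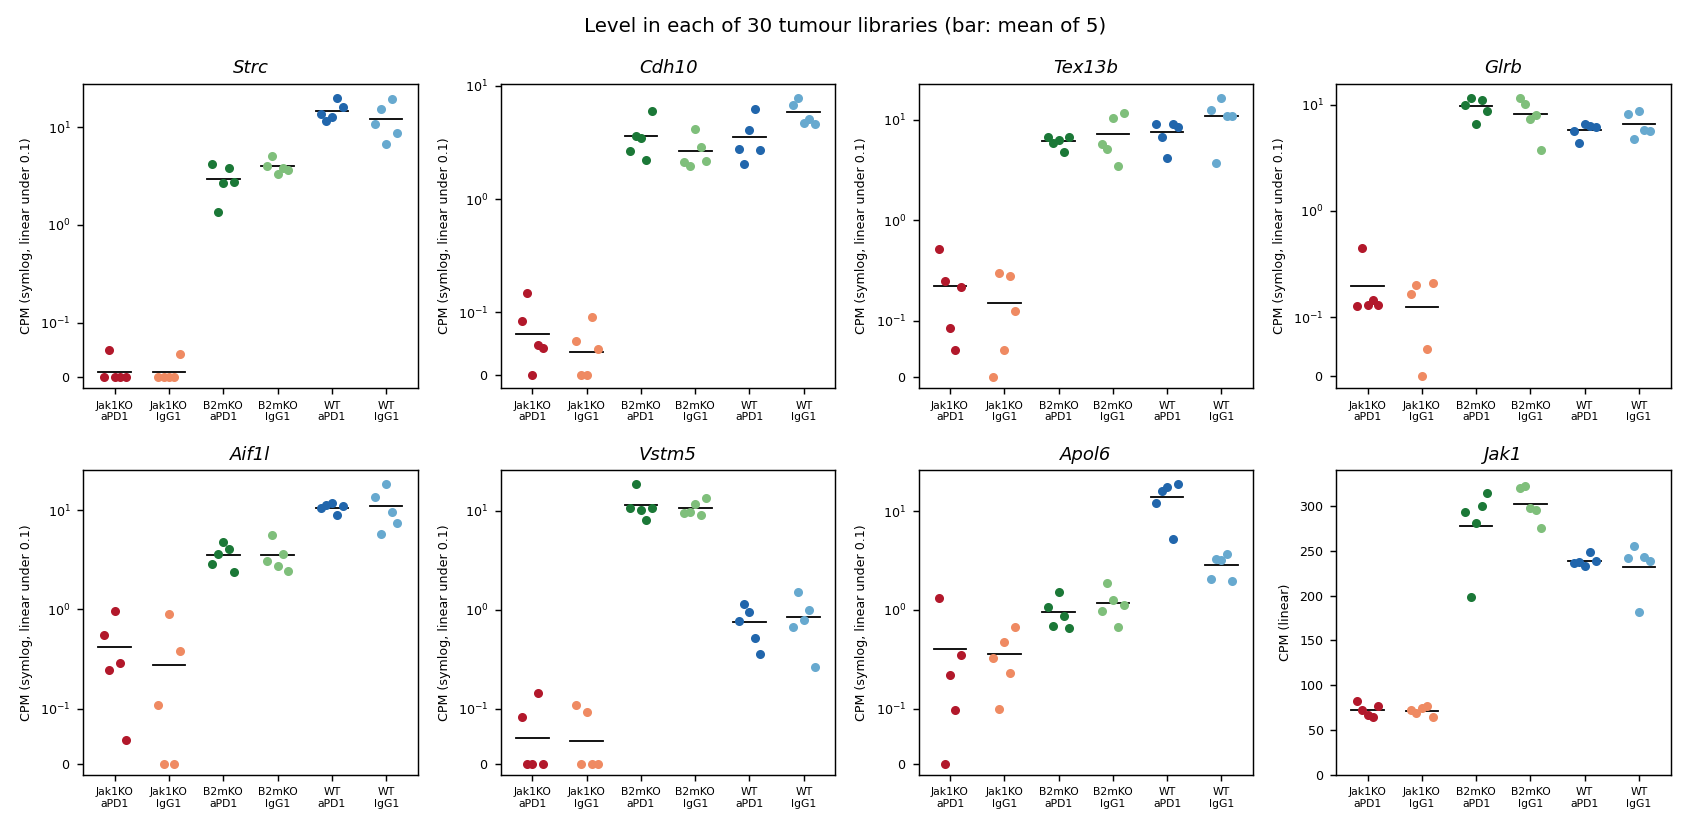
CPM of the 7 genes and of Jak1 in each of 30 libraries (points), by genotype and antibody, with the mean of 5 as a bar; the axes are symmetric-log, linear under 0.1 CPM, except for Jak1, which is linear. All 10 Jak1KO libraries lie under all 20 others for Strc, Cdh10, Tex13b, Glrb, Aif1l and Vstm5, while WT libraries of Vstm5 stay at 1.49 CPM or less and Jak1KO and B2mKO libraries of Apol6 overlap.

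Vstm5 was expressed mainly in B2mKO tumours. It had 0.0856, 0, 0, 0.145 and 0 CPM in Jak1KO aPD1 tumours and 0.109, 0, 0.0941, 0 and 0 CPM in Jak1KO IgG1 tumours. B2mKO tumours had 10.5, 18.4, 10.1, 7.97 and 10.5 CPM with aPD1 and 9.39, 9.59, 11.6, 8.98 and 13.4 CPM with IgG1. WT tumours had 0.772, 1.14, 0.951, 0.518 and 0.354 CPM with aPD1 and 0.675, 1.49, 0.778, 0.980 and 0.264 CPM with IgG1. The 3 genotypes did not overlap, with B2mKO highest, WT far under it, and Jak1KO lowest at no more than 3 reads per library. The description of the 7 as expressed in the other tumours and lost in Jak1KO thus rests for Vstm5 mainly on B2mKO tumours. WT tumours had only 6 to 27 reads per library. Jak1KO tumours were still lower than WT tumours, with a log2 fold change of -3.86 ± 0.69 with aPD1 and -4.22 ± 0.71 with IgG1.

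Apol6 also departed from that description. Its levels were 1.33, 0, 0.219, 0.0969 and 0.347 CPM in Jak1KO aPD1 tumours and 0.328, 0.0999, 0.470, 0.231 and 0.669 CPM in Jak1KO IgG1 tumours. They were 1.08, 0.686, 1.51, 0.874 and 0.654 CPM in B2mKO aPD1 tumours and 0.974, 1.86, 1.27, 0.676 and 1.13 CPM in B2mKO IgG1 tumours. WT tumours had 12.2, 16.1, 17.7, 5.27 and 18.7 CPM with aPD1 and 2.07, 3.32, 3.17, 3.66 and 1.98 CPM with IgG1. Jak1KO and B2mKO libraries overlapped, and every WT library was above both. The log2 fold change of Jak1KO tumours was -5.06 ± 0.44 against WT with aPD1 and -2.91 ± 0.51 with IgG1, but -1.19 ± 0.57 against B2mKO with aPD1 and -1.66 ± 0.56 with IgG1. The aPD1 values rest in part on Jak1KO aPD1 replicate 1, at 1.33 CPM. Without it they were -6.30 ± 0.48 against WT and -2.43 ± 0.62 against B2mKO.

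Over the 7 genes, the median fitted log2 fold change of Jak1KO tumours was -5.01 against WT with aPD1, -5.68 against WT with IgG1, -5.61 against B2mKO with aPD1 and -5.92 against B2mKO with IgG1, beside medians over all genes tested of 0.021, 0.002, 0.006 and 0.019. In 6 of the 7, Apol6 being the exception, all 10 Jak1KO libraries were under all 20 others, as they were for 2.62% of all genes tested. These values restate the choice of the genes. Ranked by the weakest of the 4 fold changes, Strc, Cdh10, Glrb and Tex13b held ranks 1 to 4 of all genes tested, Vstm5 held 7, Aif1l 25 and Apol6 249. The rule for choosing the genes had no numeric threshold.

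Antibody treatment, which the choice did not use, left no detectable mark on these genes in Jak1KO tumours. None of the 7 passed an adjusted p of 0.05 between aPD1 and IgG1 there, against a background of 0% of all genes tested. None of the 7 had an unadjusted p under 0.05 by edgeR, DESeq2 or limma voom, while 174, 153 and 114 of all genes did. With so few reads the intervals are wide. The log2 fold change was 0.61 for Glrb (95% interval -0.84 to 2.06), 0.57 for Aif1l (-0.89 to 2.04), 0.56 for Tex13b (-1.26 to 2.38) and 0.16 for Apol6 (-1.23 to 1.56). It was 0.66 for Cdh10 (-1.66 to 2.99), 0.22 for Vstm5 (-2.38 to 2.83) and -0.04 for Strc (-3.95 to 3.87). A several-fold effect of aPD1 on Strc, Cdh10 or Vstm5 in Jak1KO tumours was not detectable at this depth.

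In B2mKO tumours none of the 7 passed between aPD1 and IgG1 (background 0%), and none had an unadjusted p under 0.05 by edgeR, DESeq2 or limma voom, against 516, 536 and 500 of all genes. The fitted log2 fold changes ran between -0.44 ± 0.28 for Strc and 0.43 ± 0.26 for Cdh10. In WT tumours 1 of the 7 passed, against a background of 4.38%. That gene was Apol6, which rose to 14.0 ± 5.46 CPM with aPD1, against 2.84 ± 0.767 CPM with IgG1 (log2 fold change 2.32 ± 0.35, edgeR adjusted p = 0.00104), with all 5 aPD1 libraries above all 5 IgG1 libraries. Cdh10 averaged 3.56 CPM with aPD1 and 5.80 CPM with IgG1 in WT tumours and missed the threshold (-0.70 ± 0.25, edgeR adjusted p = 0.0978). It passed when WT aPD1 replicate 4, its highest aPD1 library at 6.26 CPM, was left out, and also without the pair of libraries that stand apart, which makes the count 2 of 7 in either case.

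**Figure D2:**
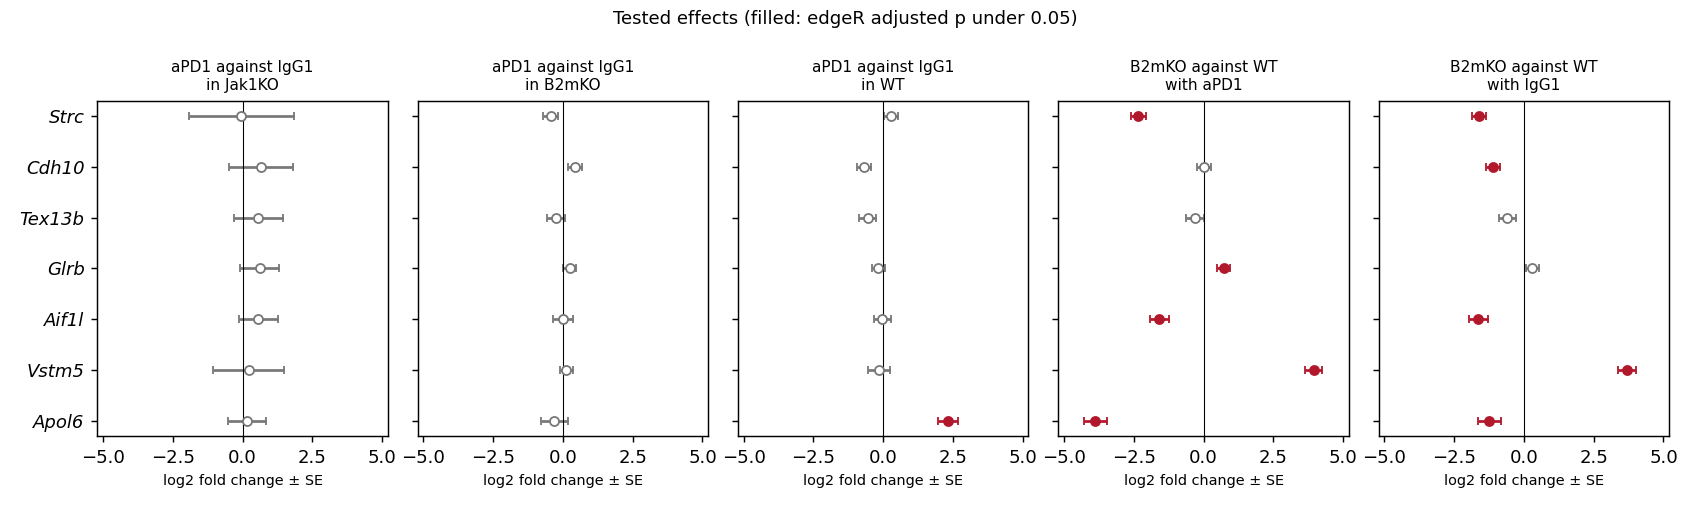
Fitted log2 fold change ± SE of each of the 7 genes for aPD1 against IgG1 within each genotype (left 3 panels) and for B2mKO against WT with each antibody (right 2 panels). Filled points have an edgeR adjusted p under 0.05; within Jak1KO and B2mKO tumours none is filled, and in WT tumours only Apol6 is, at 2.32.

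Differences between the genotypes other than Jak1KO were common among the 7. B2mKO and WT tumours differed for 5 of the 7 with aPD1 (background 20.4%) and for 5 with IgG1 (background 21.2%). A gene high in only B2mKO or only WT tumours could be chosen through that genotype, so these counts are not independent of the choice. Strc fell in B2mKO tumours, with a log2 fold change of -2.33 ± 0.27 with aPD1 (edgeR adjusted p = 5.91e-07) and -1.61 ± 0.26 with IgG1 (edgeR adjusted p = 8e-05). Aif1l fell as well, at -1.58 ± 0.34 with aPD1 (edgeR adjusted p = 0.00126) and -1.63 ± 0.34 with IgG1 (edgeR adjusted p = 0.00102). Vstm5 rose by 3.95 ± 0.31 with aPD1 (edgeR adjusted p = 1.79e-12) and by 3.69 ± 0.31 with IgG1 (edgeR adjusted p = 1.25e-11), 15.5 and 12.9 times the WT level. The 3 genes thus differed between B2mKO and WT tumours in both directions.

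The remaining genes differed with 1 antibody or with neither, apart from Apol6. Cdh10 fell in B2mKO tumours with IgG1 (-1.12 ± 0.25, edgeR adjusted p = 0.00132), and with aPD1 its log2 fold change was 0.01 ± 0.25 (edgeR adjusted p = 0.981). Glrb rose in B2mKO tumours with aPD1 (0.72 ± 0.23, edgeR adjusted p = 0.0245) and gave 0.30 ± 0.23 with IgG1 (edgeR adjusted p = 0.366). The Glrb call was lost without B2mKO aPD1 replicate 4, WT aPD1 replicate 1 or WT aPD1 replicate 2 (edgeR adjusted p = 0.0515 to 0.0704). Tex13b did not pass with either antibody, at -0.30 (95% interval -0.94 to 0.35) with aPD1 and -0.59 (-1.23 to 0.04) with IgG1. Apol6 fell in B2mKO tumours, at -3.87 ± 0.40 with aPD1 (edgeR adjusted p = 4.91e-08) and -1.24 ± 0.42 with IgG1 (edgeR adjusted p = 0.0325). The IgG1 call for Apol6 was lost without any 1 of 6 of the 10 libraries compared (edgeR adjusted p = 0.0526 to 0.0903), without the pair that stand apart (0.0512) and by limma voom (adjusted p = 0.0735).

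In bulk tissue, fewer cells of a type and less RNA per cell cannot be told apart, so the levels of other cells' markers are given beside these differences. The summed CPM of 7 fibroblast markers, none of them at 0 in any library, was 10088 to 31601 in B2mKO tumours, against 4866 to 13278 in WT tumours and 7478 to 10130 in Jak1KO tumours. By genotype it was highest in B2mKO tumours, as Vstm5 was. The mean sums of endothelial markers (179 and 166 CPM with aPD1 and IgG1) and of keratinocyte markers (25.4 and 27.2 CPM) were also highest there. Most of the keratinocyte sum was Trp63. Within each B2mKO group the library with the most Vstm5 had the lowest fibroblast sum. It was 10088 in aPD1 replicate 2 (18.4 CPM of Vstm5), which stands apart over all genes, and 13969 in IgG1 replicate 5 (13.4 CPM). Most of the fibroblast sum was Col3a1, with a mean of 17446 CPM out of 21147 CPM in B2mKO IgG1 tumours. The part of fibroblasts, endothelial cells or keratinocytes in the level of Vstm5 was not tested. The summed CPM of 6 Schwann cell and neuron markers was 37.3 to 68.8 in Jak1KO tumours, 12.7 to 21.6 in B2mKO tumours and 43.8 to 90.4 in WT tumours, nearly all of it Tubb3. The defining genes Sox10, Stmn2 and Prph were near 0, with group means of 0.179 CPM or less. The part of these cells in the levels of Cdh10, Glrb and Vstm5 was not tested.

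Apol6 is set beside interferon genes because its family responds to interferons. Within the WT aPD1 group its values of 12.2, 16.1, 17.7, 5.27 and 18.7 CPM stood beside 4.91, 5.15, 5.43, 0.753 and 3.43 CPM for Ifng, which encodes interferon gamma. Irf1, which encodes a transcription factor induced by interferon gamma, had 481, 469, 600, 329 and 531 CPM in the same libraries. Replicate 4 was the lowest for all 3 genes. In Jak1KO aPD1 tumours Ifng had 3.21, 0.148, 0.920, 0.0484 and 1.87 CPM, while Apol6 stayed at 1.33 CPM or less and Irf1 at 226 CPM or less. The 3 highest Ifng values in that group, 3.21, 1.87 and 0.920 CPM, came from the 3 libraries with the most Apol6 and the most Irf1. In Jak1KO IgG1 tumours Irf1 was instead highest, at 232 CPM, in replicate 4, which had the least Ifng, at 0.0923 CPM. Replicate 5 of that group had the most Ifng, at 1.88 CPM, and the most Apol6, at 0.669 CPM, with Irf1 at 202 CPM. In B2mKO tumours Ifng was at 0.486 CPM or less in every library. T cells are known as a main source of interferon gamma, and none of 7 T cell markers was at 0 in any library. Their summed CPM was 6.64 to 42.1 in WT aPD1 tumours and 4.01 to 13.3 in WT IgG1 tumours. In Jak1KO tumours it was 5.94 to 40.9 with aPD1 and 9.19 to 36.2 with IgG1. In B2mKO tumours it was 7.02 to 21.6 with aPD1 and 4.93 to 20.5 with IgG1. The part of T cells in the rise of Apol6 was not tested.

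**Figure D3:**
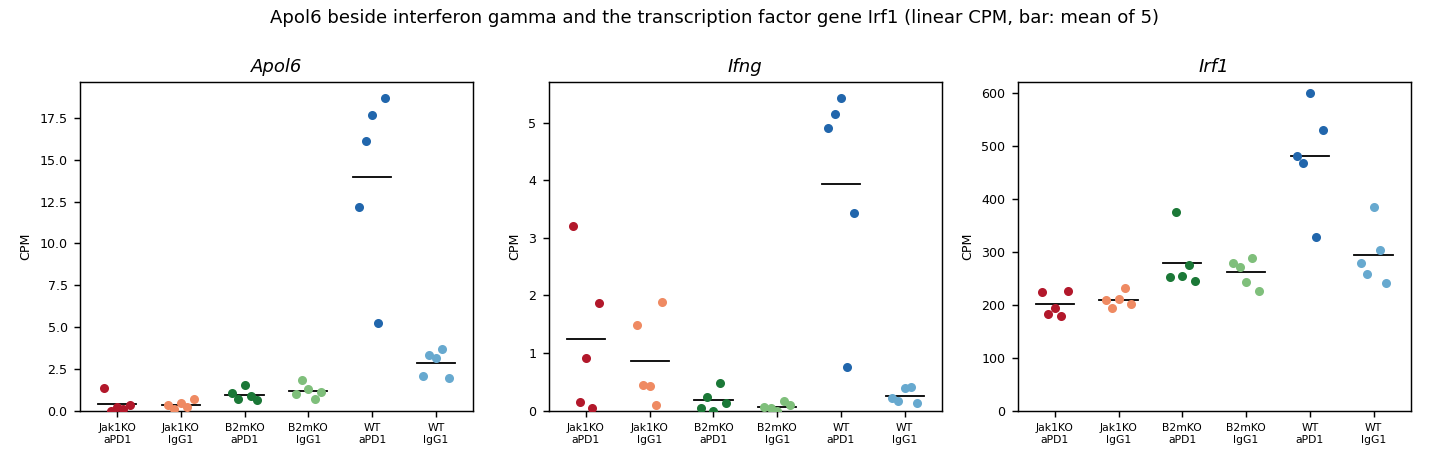
Linear CPM of Apol6, of Ifng and of the transcription factor gene Irf1 in each of 30 libraries (points, bar at the mean of 5), by genotype and antibody. WT aPD1 tumours are highest for Apol6, at a mean of 14.0 CPM, with 1 low library (replicate 4, at 5.27 CPM) that is also low for Ifng and Irf1.

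Whether the aPD1 effect on a gene differed between genotypes was tested directly. For Apol6 the effect in Jak1KO tumours minus that in WT tumours was -2.15 ± 0.78 on the log2 scale and missed the threshold (edgeR adjusted p = 0.405; background 0%). With single libraries left out it was -3.39 to -1.78 (edgeR adjusted p = 0.0711 to 0.709), the lowest value and the lowest p without Jak1KO aPD1 replicate 1. None of the other 6 passed in that test, and only Apol6 had an unadjusted p under 0.05, while 1286 of all genes did. Against B2mKO tumours the Jak1KO effect passed for none of the 7 (background 0%), none of which had an unadjusted p under 0.05 by edgeR (310 of all genes did). The effect in B2mKO minus that in WT tumours, a comparison added after the values were seen, was -2.62 ± 0.59 for Apol6 (edgeR adjusted p = 0.0704; background 0.103%), with DESeq2 giving an adjusted p of 0.0175 and edgeR 0.00739 to 0.159 when single libraries were left out. For Cdh10 it was 1.13 ± 0.36 (edgeR adjusted p = 0.176).

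Genes of related function were examined from 8 lists. The interferon gamma response was the list with the most genes lower in Jak1KO tumours. Of its 19 genes, all tested, 19 fell in Jak1KO tumours against WT with aPD1 (12.4% of all genes were lower), 14 against WT with IgG1 (11%), and 15 each against B2mKO with aPD1 (15.1%) and with IgG1 (14.6%). Their median log2 fold changes in that order were -2.24, -1.20, -1.03 and -1.29. One member, Ciita, rose against B2mKO with IgG1. Of the 12 other apolipoprotein L genes 7 were tested, of which 5 fell against WT with aPD1, 3 against WT with IgG1, 3 against B2mKO with aPD1 and 4 against B2mKO with IgG1, while Apol8 rose against WT with IgG1. Apol9a and Apol9b fell in all 4 comparisons, Apol9a with means of 13.4 and 15.2 CPM in Jak1KO tumours, 98.2 and 106 CPM in B2mKO tumours, and 109 and 82.2 CPM in WT tumours (aPD1 and IgG1 in each). Its log2 fold change was -3.01 ± 0.23 against WT with aPD1 (edgeR adjusted p = 1.47e-10). Apol9a and Apol9b are near-identical copies, and reads that fit both are not counted, so their split is uncertain. In WT tumours aPD1 raised Apol10b (0.99 ± 0.18, edgeR adjusted p = 0.00236) as it raised Apol6. Apol10b was the one of the 7 tested relatives that passed there, as 4.38% of all genes did.

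Among the 12 other type II cadherins 5 were tested. In Jak1KO tumours 2 fell and 2 rose against WT with aPD1, and 2 fell and 1 rose against WT with IgG1. Against B2mKO tumours 2 fell with aPD1 and 1 fell with IgG1. Of all genes tested, 12.4%, 11%, 15.1% and 14.6% were lower in these comparisons, in that order. The share of all genes that were higher was not counted, so the rises in any list have no background beside them. Cdh19, known as a cadherin of glial precursors and Schwann cells, fell in all 4 comparisons, and its means were 0.482 and 0.370 CPM in Jak1KO tumours, 12.8 and 10.6 CPM in B2mKO tumours and 6.48 and 7.55 CPM in WT tumours (aPD1 and IgG1 in each). Its log2 fold change was -4.81 ± 0.33 against B2mKO with IgG1 (edgeR adjusted p = 1.01e-11) and -4.32 ± 0.34 against WT with IgG1 (edgeR adjusted p = 2.3e-10). Cdh11, a mesenchymal cadherin, fell against WT tumours with both antibodies (-2.87 ± 0.51 with aPD1, edgeR adjusted p = 0.000121) but did not pass against B2mKO tumours. Cdh24 rose against WT tumours with both antibodies (0.58 ± 0.17 with aPD1, edgeR adjusted p = 0.0166).

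Of 7 partners of the glycine receptor 2 were tested, Gphn and Slc6a9 (a glycine transporter gene), and neither passed as lower in Jak1KO tumours. The alpha subunit genes Glra1, Glra2, Glra3 and Glra4, without which the beta subunit forms no channel, had group means of 0.189 CPM or less in all 6 groups and were not tested. Gphn, which encodes gephyrin, averaged 50.6 and 47.7 CPM in Jak1KO tumours (aPD1 and IgG1), 44.7 and 43.6 CPM in B2mKO tumours and 44.1 and 44.9 CPM in WT tumours. It rose against WT with aPD1 (0.20 ± 0.07, edgeR adjusted p = 0.0411). Of 11 relatives and hair-bundle partners of stereocilin 4 were tested. Msln, which encodes mesothelin, a relative of stereocilin, rose in 3 of the 4 comparisons (2.24 ± 0.42 against B2mKO with IgG1, edgeR adjusted p = 0.000164), and the hair-bundle genes Cdh23 and Myo7a fell against B2mKO tumours but did not pass against WT tumours. None of the 4 annotated relatives of Tex13b was tested, with 10 reads or fewer each in all 30 libraries. Of 6 Vstm5-like genes 3 were tested, and 1, Vsir, fell, against WT with aPD1. Of 6 relatives of Aif1l, Fscn1 rose against WT and B2mKO tumours with aPD1, Actn1 rose against B2mKO with aPD1, and Lcp1 fell against WT with aPD1, each by less than 1 on the log2 scale. Aif1 itself, a macrophage gene, did not pass in any of the 4.

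Most chromosomal neighbours of the 7 genes did not share the low level. The 3 nearest tested genes on each side of each gene make 42 neighbours, and 3 of them, 7.1%, were lower in Jak1KO tumours in all 4 comparisons (edgeR adjusted p under 0.05 in each), against 4.39% of all genes tested. These were Tsc22d3, 208 kb from Tex13b, and Tmem144 and Ctso, 991 and 1019 kb from Glrb. Tmem144 had log2 fold changes of -1.94 to -1.30. Pdgfc, the nearest to Glrb at 123 kb, had -0.76 to -0.23 and was past the threshold in 3 of the 4. Fam198b, the nearest on the other side of Glrb, rose against WT tumours and fell against B2mKO tumours (-0.57 to 1.48). Ctso, which encodes the protease cathepsin O, had means of 31.2 and 31.9 CPM in Jak1KO tumours, 93.5 and 85.8 CPM in B2mKO tumours and 46.5 and 64.6 CPM in WT tumours (aPD1 and IgG1 in each). None of the 16 neighbours within 100 kb was lower in all 4, and 33 of the 42 changed by less than 1 on the log2 scale in every comparison. The neighbours of Cdh10 lay 3535 to 6608 kb away and those of Glrb 123 to 1211 kb away. The count within 100 kb therefore says nothing about the surroundings of these genes. Taking 5 neighbours on each side gave 5 of 70, taking 1 gave none of 14, and 3 on each side without the pair of libraries that stand apart gave 5.

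The nearest genes to Aif1l, Vstm5 and Strc that do not overlap them did not pass as lower in Jak1KO tumours, apart from Med17 against B2mKO tumours. Nup214, which encodes a nuclear pore protein, begins 0.994 kb beyond Aif1l, and its means were 67.8 and 72.3 CPM in Jak1KO tumours, 53.4 and 64.4 CPM in B2mKO tumours and 66.5 and 53.2 CPM in WT tumours (aPD1 and IgG1 in each). Its log2 fold change was between 0.03 and 0.44 in the 4 comparisons, none past the threshold. Med17, which encodes a Mediator subunit, begins 0.935 kb beyond Vstm5, and averaged 45.7 and 46.0 CPM in Jak1KO tumours, 73.5 and 62.4 CPM in B2mKO tumours and 47.2 and 56.0 CPM in WT tumours. It fell against B2mKO tumours only, by 0.69 ± 0.14 with aPD1 (edgeR adjusted p = 0.000359) and by 0.44 ± 0.14 with IgG1 (edgeR adjusted p = 0.0153). Catsper2, a sperm ion channel gene 5.46 kb from Strc, was higher in Jak1KO tumours in 3 of the 4 comparisons, by 0.81 ± 0.17 against B2mKO with IgG1 (edgeR adjusted p = 0.000591).

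Ckmt1, which encodes a mitochondrial creatine kinase, was the exception at close range. It overlaps the end of Strc by a few bases on the opposite strand, and its means were 0.0349 and 0.00941 CPM in Jak1KO tumours, 0.148 and 0.271 CPM in B2mKO tumours and 0.700 and 0.767 CPM in WT tumours. It fell in 3 of the 4 comparisons (-4.08 ± 0.61 against WT with aPD1, edgeR adjusted p = 6.14e-06) and missed the threshold against B2mKO with aPD1 (-1.85 ± 0.86, edgeR adjusted p = 0.106). Counting ignored strand, and Ckmt1 had 206 reads in all 30 libraries against 3570 for Strc, so reads from Strc transcripts that run past its end cannot be told apart from Ckmt1 reads. Apol6 overlaps Mb, the myoglobin gene, on the opposite strand. Mb averaged 2.18 and 0.470 CPM in Jak1KO tumours, 0.516 and 0.854 CPM in B2mKO tumours and 2.59 and 2.89 CPM in WT tumours (aPD1 and IgG1 in each). It had 997 reads in all 30 libraries against 2129 for Apol6, and as counting ignored strand, reads of this pair cannot be told apart where the genes overlap. Jak1KO aPD1 replicate 1, the Jak1KO library with the most Apol6, held 222 reads of Mb, and its summed level of 6 skeletal muscle markers, 770 CPM, was the highest of the 30 libraries.

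**Figure D4:**
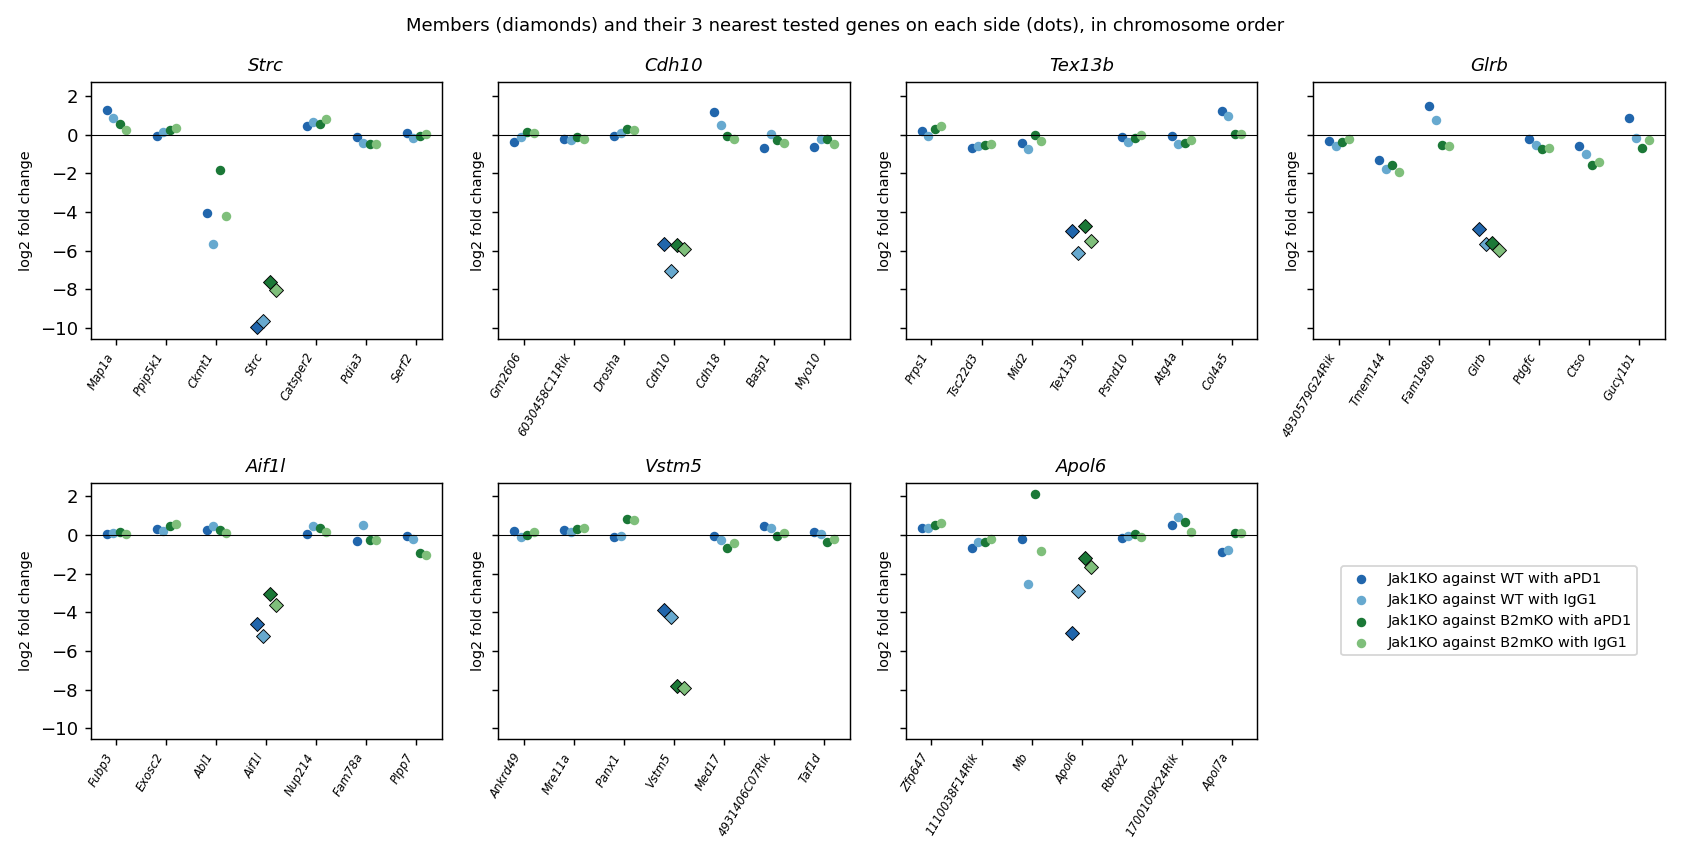
Fitted log2 fold change of Jak1KO tumours in 4 comparisons (colours) for each of the 7 genes (diamonds) and for the 3 nearest tested genes on each side (dots), in chromosome order and not to scale in distance. Most neighbours lie near 0, and 33 of 42 are within 1 of it in every comparison. Ckmt1 beside Strc is as low as -5.66, and Tmem144 near Glrb is at -1.94 to -1.30.

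By the size of the fall, few genes outside the 7 were like Strc, Cdh10, Tex13b, Glrb and Aif1l. For this count 12479 genes had at least 1 CPM on average in each of the 4 WT and B2mKO groups. Of these, 18 had a log2 fold change of -3 or lower in all 4 comparisons, on 10 chromosomes, those 5 among them. Vstm5 and Apol6 were outside this count, with means under 1 CPM in at least 1 of the 4 groups. A fall of any size past the threshold in all 4 comparisons was less rare, at 680 of all genes tested (4.39%). Likeness was measured as the weakest of the 4 fold changes, over 6 groups of 5 libraries, and predicted genes were skipped. As these genes were picked by that measure, their low level is a description. Raet1e, which encodes a stress-induced ligand of the lymphocyte receptor NKG2D, came first, with means of 0.511 and 0.567 CPM in Jak1KO tumours, 8.43 and 8.67 CPM in B2mKO tumours and 7.27 and 8.09 CPM in WT tumours (aPD1 and IgG1 in each). The weakest of its fold changes was -3.81. Next came Cdh19 (-3.74), Tubg2 (-3.62), which encodes a gamma-tubulin, Slc4a5 (-3.58), a bicarbonate transporter gene, and Kcnh1 (-3.49), a potassium channel gene. Ifi44, an interferon-induced gene, had -3.30, with means of 9.06 and 7.40 CPM in Jak1KO tumours, 135 and 197 CPM in B2mKO tumours and 94.9 and 72.7 CPM in WT tumours. Rhbdl3 (-3.17), Angpt1 (-3.12), which encodes the ligand angiopoietin 1, Lrrtm2 (-3.03) and Krt16 (-3.0) complete the 10.

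None of these 10 genes passed between aPD1 and IgG1 in Jak1KO tumours, where edgeR called no gene. In WT tumours Lrrtm2 was the one of the 10 that passed, rising with aPD1 (0.77, edgeR adjusted p = 0.00311), where 4.38% of all genes passed. Ifi44 gave 0.39 there (edgeR adjusted p = 0.484).

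**Figure D5:**
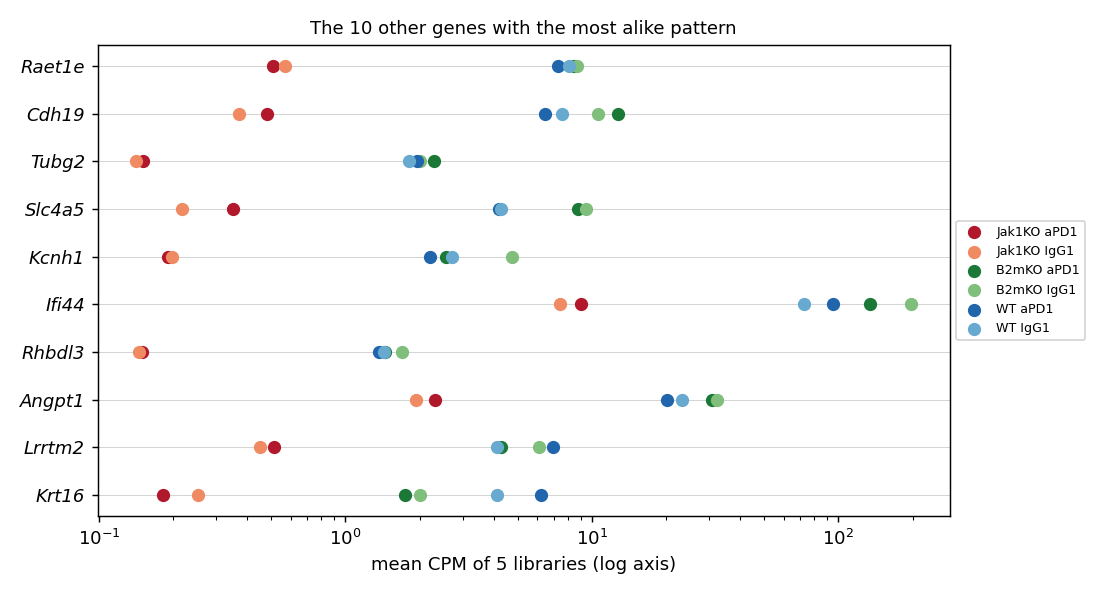
Mean CPM of 5 libraries (log axis) in each of the 6 groups for the 10 genes whose pattern was most like that of the 7, ordered by the weakest of their 4 fold changes. Both Jak1KO means lie to the left of the other 4 in every row; Raet1e has 0.511 and 0.567 CPM against 7.27 to 8.67 CPM.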

How the data were processed

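The authors deposited raw read counts per gene, made with featureCounts 2.0.0 on Ensembl GRCm38 release 99 without strand and without multi-mapped reads, per the file headers. The submitters' processing notes name STAR 2.5.2a and mm10, with edgeR 3.24.3, Cufflinks 2.2.1 and FastQC 0.11.2. The 30 per-sample tables held the counts of the series table. The header of WT aPD1 replicate 2 names another alignment file, and its counts were used as deposited. Symbols came from a reference table (55144 of 55471 identifiers); the 327 without one held 0.047% of counts. Tests used edgeR 4.0.16 under R 4.3.3 (filterByExpr, minimum count 10 and total 15; TMM; 1 quasi-likelihood fit of 6 group means over 30 libraries; Benjamini-Hochberg over all genes tested, threshold 0.05), tested on simulated counts. SE is the absolute log2 fold change over the square root of F, and 95% intervals use the t distribution with 24 degrees of freedom. Limma 3.58.1, DESeq2 1.42.0 and other settings were alternatives. The 7 genes, the lists and the rule for other named genes (the neighbours, the 10 most alike genes, list members with the smallest p) were chosen with earlier results of these data known; some list members were named after their values were seen. All 60 replicate pairs differed by more than counting noise, with a chi-square of 6.5 to 205.8 for each degree of freedom.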

Additional observations from a re-analysis of the deposited data

Results flagged for a closer look

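Within groups of 5 libraries, the highest or lowest value of a gene was marked where its gap to the nearest other, divided by the group's range, exceeded 0.71, and 5 of the 42 combinations of gene and group were. Chance marks about 1 group in 20 where values are normally distributed. That rate does not hold for groups with few reads, where 1 read beside 4 libraries with none is always marked. Strc is marked at 0.0495 CPM in Jak1KO aPD1 replicate 2 and at 0.0418 CPM in Jak1KO IgG1 replicate 5, each of which is a single read beside 4 libraries with none. Glrb reached 0.445 CPM (9 reads) in Jak1KO aPD1 replicate 2, against 3 reads in each of the other 4. Vstm5 reached 18.4 CPM in B2mKO aPD1 replicate 2, a library that also stands apart over all genes. Apol6 reached 1.33 CPM in Jak1KO aPD1 replicate 1, the library of that group with the most Ifng, at 3.21 CPM. Its summed level of 6 skeletal muscle markers was 770 CPM, the highest of the 30 libraries, against 2.92 to 38.9 CPM in the others of its group. Apol6 overlaps Mb, the myoglobin gene, and the part of muscle in the Apol6 value was not tested.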

How the results depend on the processing

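No result reversed under any alternative. Of the counts and medians over the 7 genes and the neighbours, 474 recomputed values kept their side of the threshold or their size and 9 moved. In WT tumours aPD1 changed 2 of the 7 (Cdh10 and Apol6) without the libraries that stand apart, and 1 to 2 when single libraries were left out. For the aPD1 effect in B2mKO minus that in WT tumours, added after seeing the data, DESeq2 called 1 gene, Apol6, against 0 by edgeR, and leaving out single libraries gave 0 to 2 (Apol6 without Jak1KO aPD1 replicate 1 or WT IgG1 replicate 4, Apol6 and Cdh10 without WT aPD1 replicate 4). Neighbours lower in all 4 comparisons numbered 0 with 1 neighbour on each side, 5 with 5, 5 without the libraries that stand apart, and 2 to 3 with single libraries left out. The cause was not tested. Leaving out single libraries kept the B2mKO against WT counts at 4 to 5 with either antibody. Fitted only with the groups compared, Vstm5 failed the filter against WT tumours. The replicate numbers do not pair the samples (25 of 75 same-number pairs of libraries correlate above 0.1 in their deviations, mean r -0.018, and 5 of 30 libraries correlate best with their own number), and the replicate block gave the same member counts, 0, 0 and 1 for aPD1 in Jak1KO, B2mKO and WT tumours and 5 and 5 for B2mKO against WT. Depth limits Strc, Cdh10 and Vstm5 in Jak1KO tumours, where no library held more than 3 reads.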
